A study of Homo sapiens with 8 samples.

Results

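AC16 is a human line derived from a fusion between ventricular heart muscle cells of an adult and transformed fibroblasts, and it is grown as dividing cells. Here 2 AC16 cultures are compared, 1 maintained at 25 mM D-glucose and 1 maintained at 5 mM D-glucose, each for at least 3 passages in DMEM with 10% fetal bovine serum. The comparison uses 4 of the 8 RNA-seq libraries of the study, replicates 1 and 3 of the 25 mM group and replicates 1 and 3 of the 5 mM group. The other 4 libraries come from the same cultures after a further 24 h at 50 mM glucose, 2 from cells moved from 25 to 50 mM and 2 from cells moved from 5 to 50 mM. Genes were included where at least 2 of the 4 libraries held at least 1 RPKM (a read count divided by the length of the gene and by the size of the library). This left 11807 of the 19479 genes listed. The submitters call their repeats technical, so each p-value given here reflects how far libraries of 1 culture history vary, and glucose, culture and deposited table cannot be told apart. In bulk RNA, fewer cells that express a gene and less RNA per cell cannot be told apart either.

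Glucose enters cells through facilitative transporters, is trapped as glucose 6-phosphate by hexokinases and is then burned in glycolysis or diverted into the pentose phosphate, polyol and hexosamine routes. Cells read glucose 6-phosphate through the transcription factors MondoA and ChREBP, whose best known target is TXNIP, a brake on glucose uptake. Standard medium for many lines holds far more glucose than fasting blood plasma, and in heart cells high glucose is studied as a model of diabetic stress, with attention to oxidative, inflammatory and matrix genes.

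Library totals, recovered from the RPKM values as their divisors, ran from 21538898 reads (5 mM replicate 1) to 27372851 reads (5 mM replicate 3). Of these, 99.95% fell in listed genes. Whether the totals count all reads sequenced or only reads assigned to genes is not known, so that share is not a mapping rate. RPKM values of both tables turned back into whole reads with 1 gene length per gene, so levels can be set side by side across the tables. Over the 8 libraries, upper quartiles of RPKM differed by a factor of at most 1.065. Replicates differed by more than counting error, and the chi-square divided by its degrees of freedom was 6.727 at 25 mM and 16.567 at 5 mM. Within the 5 mM pair the fifth of genes richest in GC was lower in replicate 1 than in replicate 3, by a median log2 difference of -0.267. Of 35 cardiomyocyte markers, 9 reached the level needed for testing and 6 were at 0 in all 4 libraries, among them MYL2, NKX2-5, TBX5 and MB. The sarcomere genes TNNT2, MYH6, MYH7 and RYR2 were under 0.1 RPKM in every one of the 4 libraries. The calcium pump ATP2A2 was the most abundant of the list, at 200.3 and 200.4 RPKM at 25 mM and 213 and 197 at 5 mM. The gap junction protein GJA1 followed, at 111 and 104 RPKM at 25 mM and 103 and 94.1 at 5 mM, and neither passed the test between the cultures. Fibroblast markers were plain, with 17 of 18 tested and a summed level of 7577.0 to 8682.7 RPKM.

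Between the cultures, 4629 of 11807 genes (39.2%) passed limma's moderated test at an adjusted p of 0.05. Of these, 2030 (17.2% of genes tested) were higher at 25 mM and 2599 (22.0%) were lower. Both 25 mM libraries were above both 5 mM libraries in 3860 of the genes tested, called or not, and below both in 4135. Most differences were small, with a median absolute log2 difference of 0.42 among the genes called. Large differences lay mainly on 1 side: 565 called genes were at least 2-fold lower at 25 mM and 40 at least 2-fold higher, and 119 were at least 4-fold lower against 2 at least 4-fold higher. The plot of level against difference shows the long tail of lower genes. Values are on the log2(RPKM + 1) scale, which understates the change of low genes, and the median over all genes tested was -0.0022. Of the genes tested, 336 passed the filter on low values through the 5 mM libraries alone and 42 through the 25 mM libraries alone, and such genes had to differ. Without them 2282 genes were called lower and 1997 higher. The counts at 2-fold and 4-fold above include such genes and were not taken without them, so part of their imbalance may come from the filter. The direction of the small differences depends on scaling: quantile normalization gave 2642 higher and 2058 lower genes. Without 25 mM replicate 1 the count of calls fell to 3006, of which 1230 were higher, and without 25 mM replicate 3 the count of higher genes was 1189. Gene lists described below are read against these shares of all genes. Members that passed the filter through 1 culture alone are counted beside each list that has any. So are changes by more than 1.5 times and at least 2 genes when 1 library was left out.

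**Figure D1:**
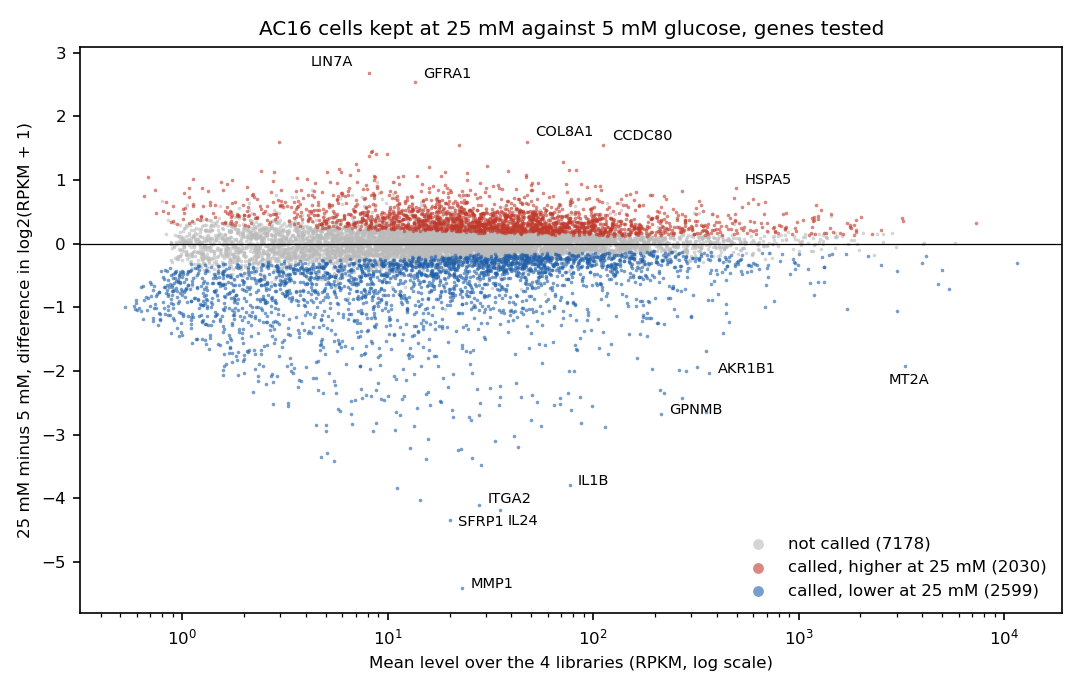
Each point is a gene tested, with its mean RPKM over the 4 libraries on a log axis and its difference between 25 and 5 mM on the y axis, in log2(RPKM + 1). Red genes (2030) were called higher at 25 mM and blue genes (2599) lower, and the blue cloud reaches -5.40 (MMP1) while the red one ends at 2.69 (LIN7A).

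The genes furthest from 0 were drawn, 15 in each direction, from called genes that average at least 5 RPKM and whose groups stand apart. The gene with the largest difference was MMP1, an interstitial collagenase that cuts fibrillar collagen (chromosome 11, 102789919 to 102798160, hg38). It stood at 0.133 and 0.0783 RPKM at 25 mM and 43.7 and 47.9 at 5 mM, which is 5 and 3 reads against 1326 and 1850. The log2 difference, with its SE, was -5.4 ± 0.081 (adjusted p = 1.07e-07), and values in brackets after a gene's levels below are such differences. Its neighbour MMP3, the protease stromelysin 1, read 0.627 and 0.539 RPKM at 25 mM and 21.7 and 21.8 at 5 mM (-3.84 ± 0.079, adjusted p = 2.55e-07). PLAU, the urokinase that activates plasminogen, measured 3.61 and 3.87 RPKM at 25 mM and 47.4 and 47.8 at 5 mM (-3.36 ± 0.098). All 3 proteases were thus low at 25 mM and well expressed at 5 mM. MMP1 and MMP3 passed the filter through the 5 mM libraries alone, so their direction was set by the filter. PLAU was above 1 RPKM in every library.

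Secreted signalling proteins and surface receptors filled much of the rest of that end. SFRP1, a secreted Wnt antagonist, measured 0.793 and 1.21 RPKM at 25 mM and 36.3 and 42.2 at 5 mM (-4.33 ± 0.12, adjusted p = 6.82e-07). The cytokine IL24 was at 3.06 and 2.48 RPKM at 25 mM and 63.1 and 71.7 at 5 mM (-4.18 ± 0.11). IL1B, the inflammatory interleukin, was at 8.33 and 10.8 RPKM at 25 mM and 146 and 142 at 5 mM (-3.79 ± 0.10). ITGA2, the collagen-binding integrin chain, fell from 55.2 and 51.9 RPKM at 5 mM to 2.08 and 2.28 RPKM at 25 mM (-4.1 ± 0.081, adjusted p = 2.55e-07). In each of these 4 genes both 5 mM libraries were above both 25 mM libraries, as the rule that chose them requires. ARHGDIB, a signalling regulator best known in blood cells, gave 0.619 and 0.911 RPKM at 25 mM and 29.3 and 26.3 at 5 mM (-4.03 ± 0.10). The epidermal secreted protein gene DMKN gave 0.168 and 0.0618 RPKM at 25 mM and 9.74 and 12 at 5 mM (-3.41 ± 0.13). ARHGDIB and DMKN passed the filter through the 5 mM libraries alone, so the filter set their direction. The membrane protein STEAP1 was at 2.06 and 1.66 RPKM at 25 mM and 28.4 and 28.9 at 5 mM (-3.38 ± 0.092). DPP4, a surface peptidase that inactivates incretin hormones, gave 2.9 and 3.95 RPKM at 25 mM and 40.5 and 40.5 at 5 mM (-3.24 ± 0.12). The pair of 5 mM libraries was less even for the last 2 of the 15. APOE, an apolipoprotein, was at 3.05 and 3.74 RPKM at 25 mM and 29.4 and 54.3 at 5 mM (-3.23 ± 0.26). GDF15, a stress cytokine, was at 1.46 and 1.71 RPKM at 25 mM and 16.3 and 31.8 at 5 mM (-3.21 ± 0.34). The lower 5 mM library, replicate 1, was above both 25 mM libraries in these 2 genes, which the rule of choice also requires.

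At the other end, LIN7A, a scaffold protein of cell junctions (chromosome 12, 80792520 to 80937934), measured 14.7 and 14.7 RPKM at 25 mM and 1.32 and 1.56 at 5 mM (2.69 ± 0.10, adjusted p = 2.59e-06). GFRA1, the receptor subunit that binds the growth factor GDNF (chromosome 10, 116056925 to 116274705), measured 27 and 20.7 RPKM at 25 mM and 3.29 and 3.16 at 5 mM (2.54 ± 0.13). These 2 genes stood clear of the others, since the third largest increase among genes of at least 5 RPKM was 1.6. That gene was COL8A1, a short-chain collagen, at 76.9 and 67.2 RPKM at 25 mM and 23.4 and 22.8 at 5 mM. Of the next genes, CCDC80, a matrix protein, was at 172 and 164 RPKM at 25 mM and 59.5 and 53.2 at 5 mM (1.56 ± 0.060). The oxytocin receptor OXTR was at 33.7 and 33.8 RPKM at 25 mM and 10.1 and 11.7 at 5 mM (1.55 ± 0.11). ALDH1A2, which makes retinoic acid, was at 12.5 and 13.8 RPKM at 25 mM and 5.1 and 3.63 at 5 mM (1.41 ± 0.15). The transcription factor GLIS3 was at 13 and 11.3 RPKM at 25 mM and 4.31 and 3.78 at 5 mM (1.38 ± 0.092). The transcription factor MYRF was at 44.2 and 41.4 RPKM at 25 mM and 17.1 and 18.5 at 5 mM (1.22 ± 0.073). C6orf99, STXBP6, FAM46B, RFLNB, LZTS3, OPN3 and GREB1L complete the 15, with log2 differences from 1.18 to 1.45. RFLNB had the least even pair, with 30.8 and 53 RPKM at 5 mM.

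**Figure D2:**
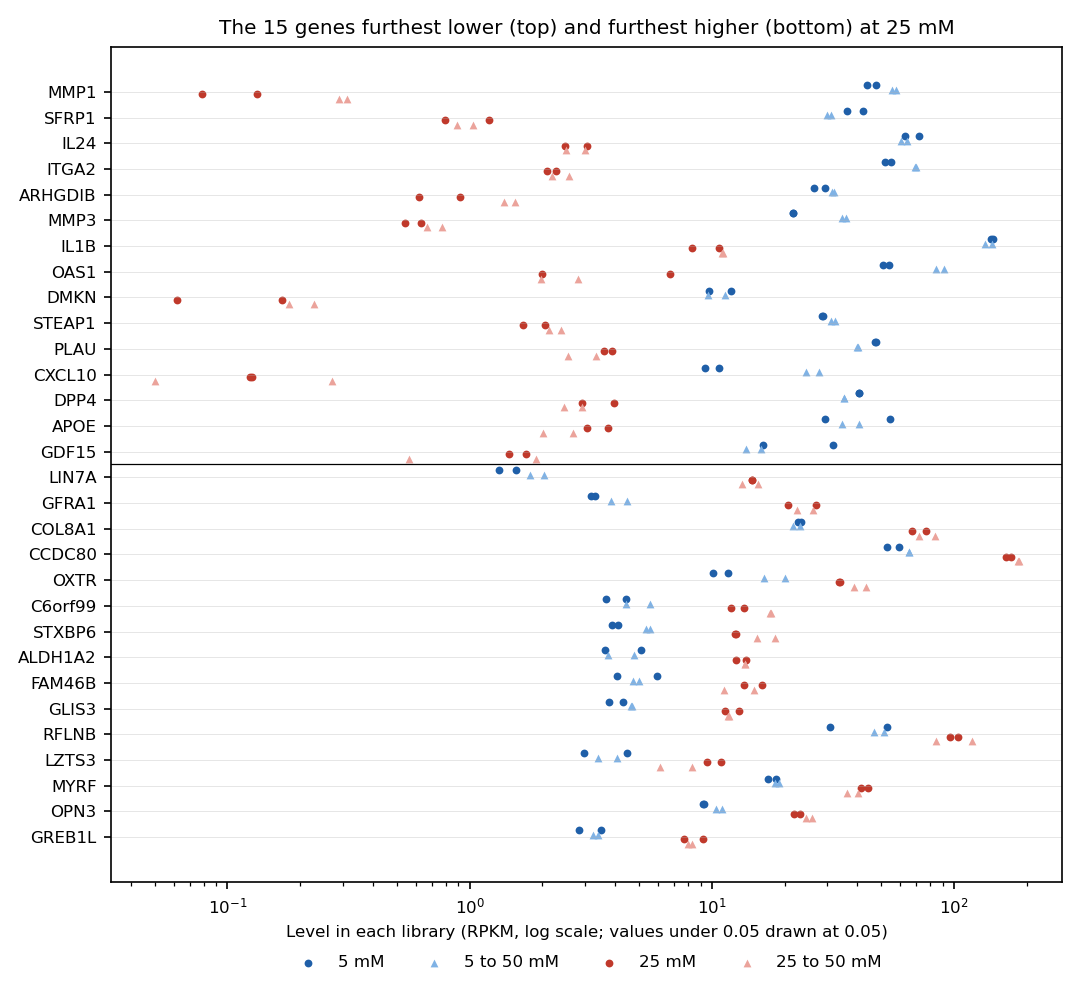
RPKM in each of the 8 libraries (log axis) for the 15 genes of at least 5 RPKM furthest lower and the 15 furthest higher at 25 mM, with circles for the 4 libraries compared and triangles for the libraries taken after 24 h at 50 mM. By the rule that chose the 30 genes the 2 red circles (25 mM) lie on one side of the 2 blue ones (5 mM), and MMP1 spans the widest gap, from 0.0783 to 47.9 RPKM.

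Some genes were close to silent in 1 culture. With at least 1 RPKM in both libraries of a culture and under 0.1 RPKM in both of the other as the rule, 16 genes were present at 5 mM alone and 0 at 25 mM alone. This rule was set after the values were seen. The highest of the 16 was HSD11B1, the enzyme that reactivates cortisol, at 8.66 and 10.2 RPKM at 5 mM and 0 and 0.0419 RPKM at 25 mM. CSF3, the granulocyte colony factor, and the metallothionein MT1A were listed at 0 in both 25 mM libraries. IDO1, ESM1, PCSK1 and XYLT1 are others of the 16.

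Promoter sequence is shown for some of the called genes at least 4-fold lower at 25 mM, a group picked from these same data. RefSeq promoter windows on GRCh38.p14 (250 bases before to 50 after a start, 14288 windows) matched 9772 of the genes tested. The AP-1 motif, searched as TGANTCA on both strands, is the letter pattern bound by FOS and JUN dimers. It occurred in 5.19% of all windows and in 18.52% of the 108 windows of called genes at least 4-fold lower at 25 mM that are outside the interferon list described below. Windows of called genes at least 2-fold higher held it in 3.64% of 55. A match is a description of letters and was not tested as a binding site. The following stretches hold the match in capitals, with 20 bases on either side, 5′ to 3′ on the gene's strand.
ARHGDIB, chr12:14951241-14951287, minus strand: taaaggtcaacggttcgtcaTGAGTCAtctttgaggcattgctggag
DMKN, chr19:35513715-35513761, minus strand: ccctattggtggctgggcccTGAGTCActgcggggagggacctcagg
MCTP1, chr5:95081681-95081727, minus strand: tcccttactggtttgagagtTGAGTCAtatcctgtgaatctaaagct
FAM180A, chr7:135748835-135748881, minus strand: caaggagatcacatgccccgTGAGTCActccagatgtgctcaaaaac
GPNMB, chr7:23246621-23246667, plus strand: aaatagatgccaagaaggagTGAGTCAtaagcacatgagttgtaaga
RAB27B, chr18:54828320-54828366, plus strand: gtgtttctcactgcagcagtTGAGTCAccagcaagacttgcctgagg
MCTP1, a membrane calcium sensor, was at 0.356 and 0.337 RPKM at 25 mM and 8.61 and 8.68 at 5 mM. FAM180A, whose function is little known, was at 0.862 and 0.917 RPKM at 25 mM and 12.5 and 12.5 at 5 mM. RAB27B, a GTPase of secretory vesicles, was at 4.17 and 6.11 RPKM at 25 mM and 36.9 and 35 at 5 mM. These 3 genes were chosen for display after their values were seen. All 6 of these genes had both 25 mM libraries below both 5 mM libraries. That adds no support, because they were picked as called and at least 4-fold lower. ARHGDIB, DMKN, MCTP1 and FAM180A also passed the filter through the 5 mM libraries alone.

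Interferon-stimulated genes, which encode antiviral effectors and are switched on through the interferon receptors, were lower at 25 mM throughout. All 38 members tested were called lower, against 22.0% of all genes, with a median log2 difference of -2.06 and a range from -3.47 to -0.70. Of these, 5 passed the filter through the 5 mM libraries alone and had to be lower. Without them, 33 of 33 were lower with a median of -2.08. OAS1, an enzyme that senses viral RNA and activates RNase L, was at 2.0 and 6.72 RPKM at 25 mM and 53.8 and 50.9 at 5 mM. Its relative OAS2 was at 3.91 and 9.24 RPKM at 25 mM and 62.3 and 57.2 at 5 mM. USP18, which removes ISG15 from proteins and dampens the receptor, measured 1.78 and 3.52 RPKM at 25 mM and 28.3 and 29.4 at 5 mM (-3.07 ± 0.19, adjusted p = 2.25e-05). CXCL10, the chemokine that draws T cells, was at 0.126 and 0.124 RPKM at 25 mM and 9.38 and 10.7 at 5 mM, or 1 read in each 25 mM library against 60 and 87. Abundant members differed too. The membrane protein gene IFI6 was at 71.9 and 118 RPKM at 25 mM and 435 and 784 at 5 mM. The ubiquitin-like modifier ISG15 was at 68.8 and 97.6 RPKM at 25 mM and 350.2 and 562 at 5 mM. The transcription factor IRF1 showed a smaller difference, at 14.6 and 16.3 RPKM at 25 mM and 31 and 30.5 at 5 mM (-0.95 ± 0.079).

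The 25 mM libraries were uneven in these genes. Replicate 1 was lower than replicate 3 in 37 of the 38, by a median of -0.436 on the log2 scale, while the 5 mM pair had 17 of 38 in that direction and a median of 0.008. OAS1 shows the spread: its log2 difference was -3.47 ± 0.37 with both libraries, -2.79 without 25 mM replicate 1 and -4.15 without replicate 3. Without replicate 1 the list had 36 of 38 called lower, with a median of -1.84, and without replicate 3 it had 38, with a median of -2.26. The summed level of the 38 genes was 558.6 and 770.4 RPKM at 25 mM and 2643.1 and 3182.5 RPKM at 5 mM, so the groups stood apart in either case.

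**Figure D3:**
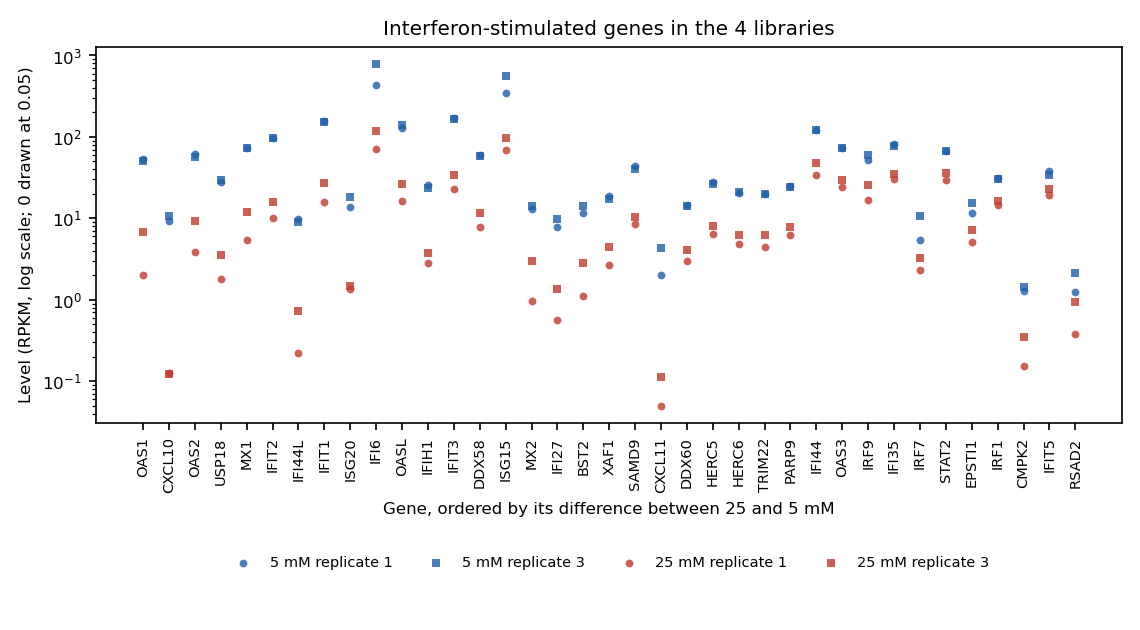
RPKM (log axis) of 37 of the 38 interferon-stimulated genes in the 4 libraries, red for 25 mM and blue for 5 mM, circles for replicate 1 and squares for replicate 3. Every red symbol lies below the blue symbols of its gene, and the red circles lie below the red squares in 36 of the 37 genes drawn.

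The interferon-stimulated response element, searched as GAAANNGAAA on both strands, is the letter pattern through which interferon switches on its targets. It was found in 24 of the 40 promoter windows of the list (20 of 30 genes with a window) and in 2.88% of the windows of all genes tested. Its letters cannot overlap those of the AP-1 pattern, so no overlap of matches could occur, and 29 windows of all held both motifs. Since the list is made of known interferon targets, its share of matches says what the genes are and is not independent of the choice. The 6 members furthest lower with a match upstream of the start are shown around the first match of each, with 20 bases on either side, 5′ to 3′ on the gene's strand. Capitals mark every match in the stretch (TTTCNNTTTC where it lies on the opposite strand). The windows of IFI44L and IFIT1 held 2 matches each and that of IFI6 held 3, and both of IFIT1's lie in the stretch shown.
CXCL10, chr4:76023689-76023738, minus strand: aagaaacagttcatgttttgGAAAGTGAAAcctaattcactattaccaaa
MX1, chr21:41431834-41431883, plus strand: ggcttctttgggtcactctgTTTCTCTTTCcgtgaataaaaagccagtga
IFI44L, chr1:78620264-78620313, plus strand: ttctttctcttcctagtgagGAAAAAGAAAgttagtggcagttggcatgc
IFIT1, chr10:89392487-89392536, plus strand: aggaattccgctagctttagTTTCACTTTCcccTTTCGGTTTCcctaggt
ISG20, chr15:88638927-88638976, plus strand: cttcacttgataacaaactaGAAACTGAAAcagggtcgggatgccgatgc
IFI6, chr1:27672319-27672368, minus strand: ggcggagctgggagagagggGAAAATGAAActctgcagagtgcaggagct
MX1, a GTPase that blocks viral replication, measured 5.5 and 11.8 RPKM at 25 mM and 73.7 and 73 at 5 mM. IFIT1, which binds foreign RNA ends, measured 16 and 27.3 RPKM at 25 mM and 155 and 151 at 5 mM. IFI44L was at 0.221 and 0.731 RPKM at 25 mM and 9.87 and 9.11 at 5 mM. ISG20, an exonuclease of RNA, was at 1.37 and 1.49 RPKM at 25 mM and 13.9 and 18.4 at 5 mM. IFI44L and MX1 also showed the gap between the 25 mM libraries. CXCL10 and IFI44L are among the members that passed the filter through the 5 mM libraries alone.

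Genes of MHC class I presentation, which display peptides to T cells and respond to interferon, followed with 14 of 15 called lower (median -0.97). HLA-B was at 98.9 and 109 RPKM at 25 mM and 222 and 265 at 5 mM (-1.21 ± 0.10). The peptide transporter TAP1 was at 3.17 and 3.76 RPKM at 25 mM and 7.91 and 9.37 at 5 mM (-1.11 ± 0.11). HLA genes are near-identical copies of one another, so how reads were divided among them is uncertain. Among NF-kB targets and cytokines, 19 of 26 were lower and 0 higher (median -1.14). Without 5 members that passed the filter through 5 mM alone, 14 of 21 were lower (median -0.76). Besides IL24 and IL1B, complement C3 was at 2.07 and 2.93 RPKM at 25 mM and 22.8 and 25.8 at 5 mM (-2.86 ± 0.14, adjusted p = 7.77e-06). The neutrophil chemokine CXCL1 was at 0.81 and 0.909 RPKM at 25 mM and 7.59 and 14.2 at 5 mM (-2.62 ± 0.23). The 5 mM libraries were uneven for CXCL1, and both exceeded the 25 mM libraries.

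Matrix and adhesion genes split by class. Matrix proteases and their inhibitors were lower in 18 of 23 and higher in 3, with MMP1, MMP3 and PLAU followed by SERPINE2, an inhibitor of thrombin and urokinase, at 63.1 and 79.2 RPKM at 25 mM and 333 and 368 at 5 mM (-2.29 ± 0.099). Without 3 members that passed the filter through 5 mM alone, 15 of 20 were lower. Integrin chains, the receptors that bind matrix, were lower in 13 of 15 and higher in 0, and in 12 of 13 without 2 members that passed the filter through 1 culture alone. After ITGA2 came the laminin receptor chain ITGA6 at 21.1 and 19.7 RPKM at 25 mM and 52.9 and 47.6 at 5 mM (-1.26 ± 0.079). ITGB5 was at 24.1 and 25 RPKM at 25 mM and 57.8 and 56.6 at 5 mM (-1.19 ± 0.051). ITGA3 was at 99 and 103 RPKM at 25 mM and 189 and 196 at 5 mM (-0.93 ± 0.046). Collagen chains went the other way in more members, 9 of 20 higher and 4 lower. COL5A1, which sets fibril diameter, was at 113 and 116 RPKM at 25 mM and 45.7 and 56.1 at 5 mM (1.16 ± 0.099). The chief fibrillar chain COL1A1 was at 1523 and 1526 RPKM at 25 mM and 963 and 1153 at 5 mM (0.53 ± 0.10, adjusted p = 0.00546). The transmembrane collagen COL13A1 was lower, at 5.09 and 5.1 RPKM at 25 mM and 18.9 and 21.4 at 5 mM (-1.79 ± 0.085). Without 5 mM replicate 1, which was below replicate 3 in this list by a median of -0.125, 9 collagens were called lower in place of 4.

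Matrix glycoproteins and proteoglycans were lower in 17 of 29 and higher in 6, and lower in 15 of 27 without 2 members that passed the filter through 5 mM alone. The laminin chain LAMA4 was at 6.63 and 8.31 RPKM at 25 mM and 33.7 and 34.3 at 5 mM (-2.05 ± 0.11). The proteoglycan versican, VCAN, was at 7.09 and 6.47 RPKM at 25 mM and 29.4 and 27.2 at 5 mM (-1.91 ± 0.072). CTHRC1, a secreted matrix protein, was at 11.1 and 10.5 RPKM at 25 mM and 24.3 and 27.6 at 5 mM (-1.19 ± 0.075). Fibronectin, FN1, differed less, at 946 and 849 RPKM at 25 mM and 1459 and 1298 at 5 mM (-0.62 ± 0.069). Cell adhesion and surface proteins were lower in 13 of 16 and higher in 2, and lower in 11 of 14 without 2 such members. L1CAM, a neural adhesion molecule, was at 6.9 and 6.51 RPKM at 25 mM and 47.4 and 50.0 at 5 mM (-2.69 ± 0.070, adjusted p = 5.94e-07). CADM1 was at 4.13 and 5.02 RPKM at 25 mM and 26.3 and 27.7 at 5 mM (-2.33 ± 0.094). The tetraspanin CD9 was at 40.4 and 40.3 RPKM at 25 mM and 95.5 and 104 at 5 mM (-1.28 ± 0.075). The peptidase MME, a surface marker of fibroblasts, measured 20.3 and 21.4 RPKM at 25 mM and 123 and 109.6 at 5 mM (-2.42 ± 0.068). Values within each pair of libraries were close in these genes. The groups did not overlap, as in 3860 higher and 4135 lower genes of the 11807 tested.

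**Figure D4:**
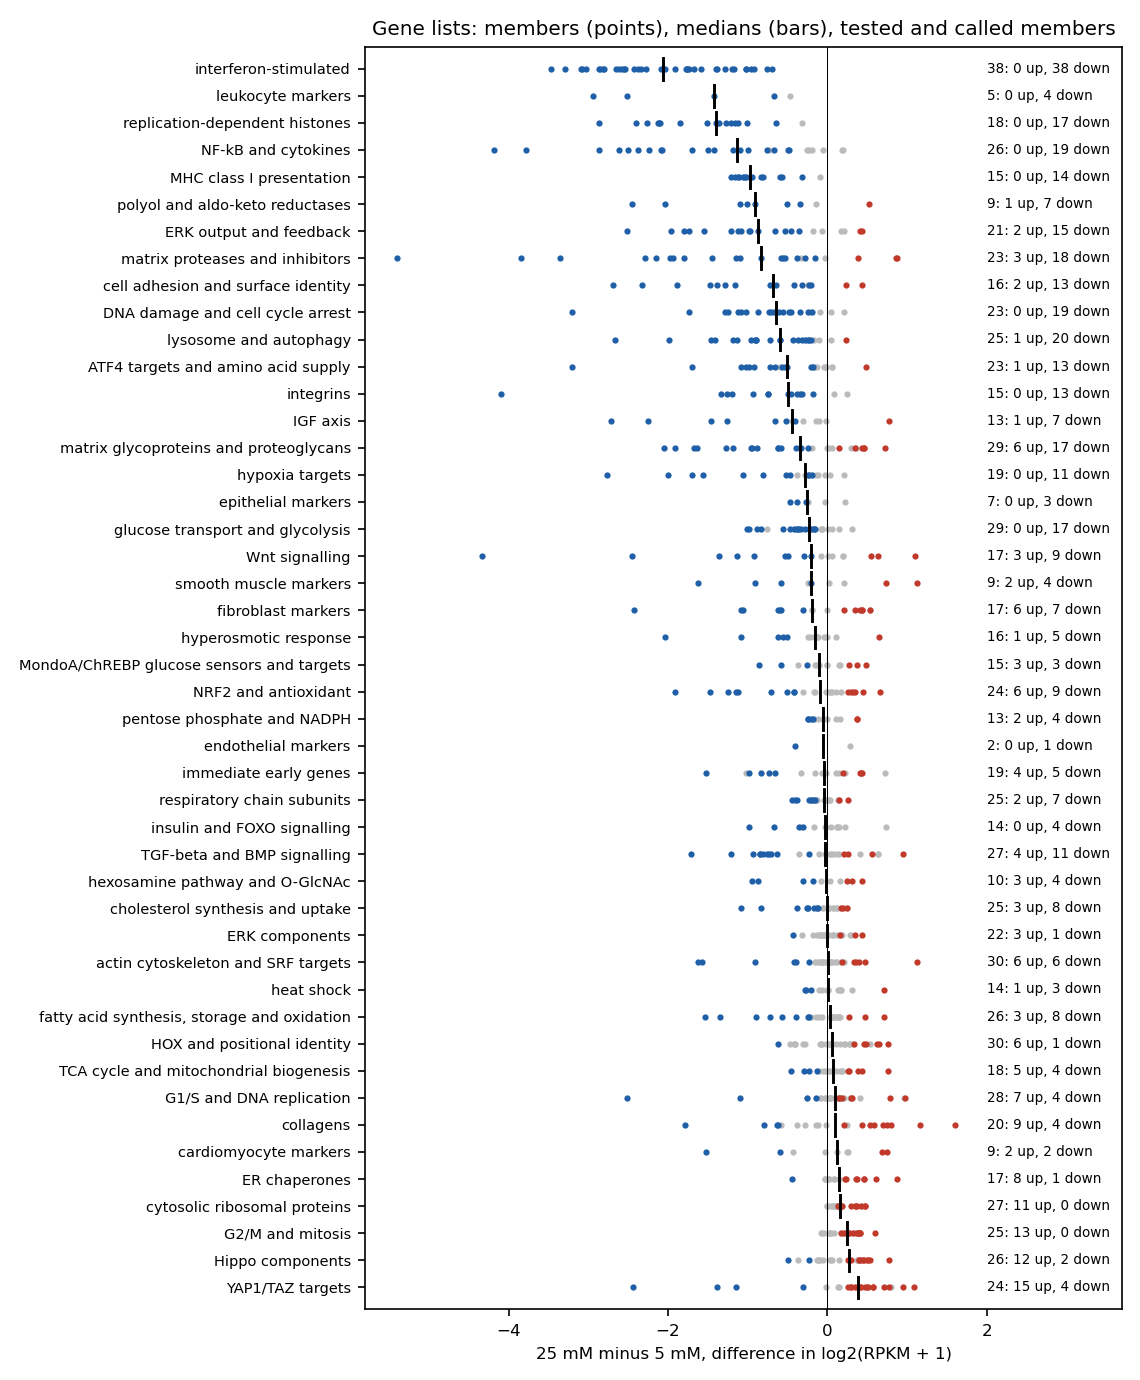
Differences between 25 and 5 mM, in log2(RPKM + 1), for the tested members of 46 gene lists, with red points called higher, blue points called lower and grey points not called; black bars are list medians and the text at the right counts tested and called members. The lists run from interferon-stimulated genes (median -2.06) to YAP1/TAZ targets (median 0.38), and most long tails point to lower values at 25 mM. The row named DNA damage and cell cycle arrest holds the list of p53 targets.

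Genes of glucose uptake and glycolysis were lower at 25 mM where they passed the test. TXNIP, the MondoA target that glucose induces (chromosome 1, 145992435 to 145996579), was at 73.9 and 80.3 RPKM at 25 mM and 152 and 131 at 5 mM (-0.86 ± 0.079, adjusted p = 0.000136), so the culture with more glucose had less of it. Its relative ARRDC4 was low and did not pass the test, at 1.43 and 1.2 RPKM at 25 mM and 1.59 and 1.4 at 5 mM (adjusted p = 0.568). MLXIP, which encodes MondoA, was higher, at 28.2 and 25.8 RPKM at 25 mM and 19 and 18.9 at 5 mM (0.49 ± 0.071). Over that list 3 of 15 genes were higher and 3 lower, near the shares of all genes. Without 5 mM replicate 3, 5 were lower, and 2 of 14 were lower without a member that passed the filter through 5 mM alone. The list's median changed sign under quantile normalization (from -0.11 to 0.0017). In glucose transport and glycolysis, 17 of 29 genes were lower and 0 higher. Without 25 mM replicate 1 that count was 10. The neuronal-type transporter SLC2A3 was at 19.1 and 18.9 RPKM at 25 mM and 38.2 and 38.6 at 5 mM (-0.98 ± 0.073). The widespread transporter SLC2A1 was at 60.8 and 57.9 RPKM at 25 mM and 85.7 and 89.9 at 5 mM (-0.56 ± 0.050). Hexokinase 2, HK2, was at 14.4 and 14 RPKM at 25 mM and 26.4 and 27.5 at 5 mM (-0.88 ± 0.066). The enolase ENO2 was at 40.8 and 44.7 RPKM at 25 mM and 88.9 and 84.5 at 5 mM (-1.0 ± 0.059). Both libraries of each culture were close in these 4 genes.

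The side routes of glucose differed among themselves. AKR1B1, aldose reductase, which turns glucose into sorbitol at the head of the polyol route (chromosome 7, 134442350 to 134459239), was at 138 and 149 RPKM at 25 mM and 559 and 626 at 5 mM (-2.04 ± 0.068, adjusted p = 1.45e-06). Other aldo-keto reductases were lower too, AKR1C1 at 1.81 and 2.8 RPKM at 25 mM and 15.1 and 18.8 at 5 mM (-2.45 ± 0.15). AKR1C3 was at 6.76 and 9.0 RPKM at 25 mM and 15.3 and 18.3 at 5 mM (-1.01 ± 0.15), and 7 of the 9 tested genes of the list were lower and 1 higher. Without a member that passed the filter through 5 mM alone, 6 of 8 were lower. The AKR1C genes are near-identical copies, so their separate levels are uncertain. In the hexosamine route, which feeds O-GlcNAc on proteins, 4 of 10 were lower and 3 higher (17.2% of all genes were higher), and 1 was higher without 25 mM replicate 1. The entry enzyme GFPT2 was at 14.5 and 16.5 RPKM at 25 mM and 28.2 and 33.3 at 5 mM (-0.94 ± 0.099). MGEA5, the enzyme that removes O-GlcNAc, was at 57 and 57.5 RPKM at 25 mM and 45.3 and 38.9 at 5 mM (0.44 ± 0.071). The pentose phosphate list had 2 of 13 higher (15.4%) and 4 lower (30.8%), and 0 lower without 25 mM replicate 1. Of 14 tested insulin and FOXO genes, 4 were lower (28.6%, against 22.0% of all genes) and 0 higher. That count was 1 without 25 mM replicate 1 and 2 without 25 mM replicate 3, and 3 genes were higher without 5 mM replicate 3. The adaptor IRS2 was uneven at 5 mM, at 8.92 and 9.78 RPKM at 25 mM and 3.44 and 7.7 at 5 mM, and did not pass the test (adjusted p = 0.129). IRS2 was called higher without 5 mM replicate 3 (adjusted p = 0.0178) and under quantile normalization (adjusted p = 0.0475). The insulin receptor INSR was under 0.1 RPKM in each library.

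Mitochondrial and lipid genes differed in both directions, with list medians from -0.04 to 0.07 and single genes from -1.54 to 0.77. Respiratory chain subunits were lower in 7 of 25 (28.0%) and higher in 2 (8.0%), and 36.0% were called in all, against 39.2% of all genes. Without 25 mM replicate 1 there were 3 lower, and without 25 mM replicate 3 there were 4. The complex I subunit NDUFA1 was at 470.5 and 479 RPKM at 25 mM and 654 and 641 at 5 mM (-0.45 ± 0.046). In the citric acid cycle list 5 of 18 were higher and 4 lower, with pyruvate carboxylase, PC, at 10.5 and 10.9 RPKM at 25 mM and 5.37 and 6.45 at 5 mM (0.77 ± 0.092). In that list 2 were lower without 25 mM replicate 1. Fatty acid genes gave 3 of 26 higher and 8 lower, among them ACSL1, which activates fatty acids, at 6.5 and 6.11 RPKM at 25 mM and 11.1 and 11 at 5 mM (-0.73 ± 0.073). Their higher genes numbered 1 without 25 mM replicate 3 and 5 without 5 mM replicate 1. Cholesterol genes gave 3 of 25 higher and 8 lower. Without 25 mM replicate 1 these were 1 higher and 4 lower, and without 25 mM replicate 3 there were 5 lower. The sterol desaturase SC5D was furthest, at 24.2 and 22.6 RPKM at 25 mM and 51.1 and 50.0 at 5 mM (-1.08 ± 0.059).

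ER chaperones, which fold secreted proteins, were higher in 8 of 17 and lower in 1, led by HSPA5 at 639 and 645 RPKM at 25 mM and 356 and 346 at 5 mM (0.87 ± 0.038, adjusted p = 5e-06). CALR was at 1473 and 1456 RPKM at 25 mM and 957 and 963 at 5 mM (0.61 ± 0.036). Targets of ATF4, the factor of the amino acid and integrated stress response, were lower in 13 of 23 and higher in 1. The pseudokinase TRIB3 was at 9.16 and 9.22 RPKM at 25 mM and 16.6 and 21.9 at 5 mM (-0.98 ± 0.14). SESN2 was at 6.05 and 6.96 RPKM at 25 mM and 13.2 and 15.3 at 5 mM (-1.02 ± 0.12). Hypoxia targets were lower in 11 of 19 and higher in 0. VEGFA, the angiogenic factor, was at 4.97 and 6.63 RPKM at 25 mM and 40.0 and 50.7 at 5 mM (-2.77 ± 0.17, adjusted p = 1.77e-05). EPAS1, which encodes HIF-2 alpha, was at 30.3 and 29.6 RPKM at 25 mM and 119.6 and 125 at 5 mM (-1.99 ± 0.048). NRF2 and antioxidant genes divided, with 6 of 24 higher and 9 lower. The metal-binding MT2A was at 1257 and 1485 RPKM at 25 mM and 4506 and 5897 at 5 mM (-1.91 ± 0.14). The mitochondrial SOD2 was at 43 and 47.1 RPKM at 25 mM and 118 and 136 at 5 mM (-1.48 ± 0.077). The haem oxygenase HMOX1 was at 18.5 and 19.6 RPKM at 25 mM and 38.8 and 48.7 at 5 mM (-1.15 ± 0.14). The quinone reductase NQO1, a standard NRF2 target, went the other way at 812 and 861 RPKM at 25 mM and 498 and 559 at 5 mM (0.66 ± 0.061), and was named after its value was seen. NFE2L2, which encodes NRF2, did not pass the test, at 78.1 and 82 RPKM at 25 mM and 93.9 and 85.5 at 5 mM (adjusted p = 0.0694). NFE2L2 was called lower without 5 mM replicate 3 (-0.23, adjusted p = 0.0206) and with GC correction (-0.16, adjusted p = 0.0206). Heat shock genes gave 1 of 14 higher and 3 lower (21.4%), with 1 lower without 25 mM replicate 1 and 4 higher without 5 mM replicate 3.

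In the ERK pathway, which carries growth factor signals from RAS to the nucleus, transcripts of the kinases and of their output differed in how they compared. ERK components gave 3 of 22 higher and 1 lower, with a median of 0.0010, and 1 higher without 5 mM replicate 3. The kinase MAPK3 did not pass the test, at 74.7 and 75.4 RPKM at 25 mM and 72.9 and 70.4 at 5 mM (adjusted p = 0.37). Output and feedback genes were lower in 15 of 21 and higher in 2, with a median of -0.87. Without 2 members that passed the filter through 5 mM alone, 13 of 19 were lower. CCND1, the cyclin of the G1 phase, was at 18.6 and 21.1 RPKM at 25 mM and 107 and 129.7 at 5 mM (-2.51 ± 0.11, adjusted p = 4.98e-06). The ERK phosphatase DUSP6 was at 4.81 and 3.69 RPKM at 25 mM and 17.1 and 22 at 5 mM (-1.96 ± 0.15). The ETS factor ETV1 was at 6.02 and 6.97 RPKM at 25 mM and 26.5 and 23.6 at 5 mM (-1.8 ± 0.092). The inhibitor SPRY4 was at 2.9 and 2.81 RPKM at 25 mM and 10.4 and 13.6 at 5 mM (-1.74 ± 0.16). EGR1 was one of the 2 higher genes, at 30.5 and 36.4 RPKM at 25 mM and 22.5 and 26.7 at 5 mM (0.43 ± 0.13, adjusted p = 0.0345). Without 25 mM replicate 3 its difference was 0.31 (adjusted p = 0.198), and without 5 mM replicate 1 it was 0.31 (adjusted p = 0.132). With no filter on low values its adjusted p was 0.0648. Immediate early genes gave 4 of 19 higher (21.1%) and 5 lower (26.3%), with KLF4 at 2.43 and 2.72 RPKM at 25 mM and 7.47 and 11.4 at 5 mM (-1.52 ± 0.22). MYC was at 60.6 and 60.9 RPKM at 25 mM and 43.8 and 46.9 at 5 mM (0.41 ± 0.052). Of the immediate early genes, 2 were higher without 25 mM replicate 3 and without 5 mM replicate 1, and 3 lower without 25 mM replicate 1. Likewise 3 of 17 were lower without 2 members that passed the filter through 5 mM alone.

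Targets of YAP1 and TAZ, the coactivators held back by the Hippo kinases, were higher in 15 of 24 and lower in 4 (median 0.38). The members furthest from 0 were among the 4 lower ones. ANKRD1, a cardiac ankyrin repeat protein and a standard YAP1 target, was at 1.99 and 2.38 RPKM at 25 mM and 17 and 15.6 at 5 mM (-2.44 ± 0.11, adjusted p = 6.29e-06). The ectonucleotidase NT5E was at 60.1 and 62.3 RPKM at 25 mM and 158 and 166 at 5 mM (-1.39 ± 0.053). Tissue factor, F3, was at 107 and 109.6 RPKM at 25 mM and 238 and 245 at 5 mM (-1.15 ± 0.062). The matricellular CYR61 was slightly higher, at 953 and 945 RPKM at 25 mM and 792 and 797 at 5 mM (0.26 ± 0.037, adjusted p = 0.00126). CTGF was at 159 and 179 RPKM at 25 mM and 134 and 141 at 5 mM (0.29 ± 0.066, adjusted p = 0.0101), and without 25 mM replicate 3 its difference was 0.21 (adjusted p = 0.0665). RBMS3, an RNA-binding protein, was furthest higher, at 9.53 and 8.98 RPKM at 25 mM and 4.21 and 3.47 at 5 mM (1.09 ± 0.095). Hippo components were higher in 12 of 26 and lower in 2 (median 0.27), with YAP1 at 92.4 and 98.2 RPKM at 25 mM and 79.9 and 78.7 at 5 mM (0.26 ± 0.050). Its DNA-binding partner TEAD1 was at 57.2 and 53.9 RPKM at 25 mM and 41.6 and 36.8 at 5 mM (0.49 ± 0.070). The scaffold SAV1 was at 30.3 and 29.5 RPKM at 25 mM and 21 and 19.8 at 5 mM (0.53 ± 0.082). WWTR1, which encodes TAZ, was lower, at 25.1 and 26.3 RPKM at 25 mM and 30.7 and 29.7 at 5 mM (-0.23 ± 0.062, adjusted p = 0.0229). It lost the call without 25 mM replicate 1 (adjusted p = 0.124), without 25 mM replicate 3 (0.059) and without 5 mM replicate 1 (0.0646). It also lost it with the 4 libraries fitted alone (adjusted p = 0.0747).

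Among other growth factor routes, TGF-beta and BMP genes gave 4 of 27 higher and 11 lower, and 9 of 25 lower without 2 members that passed the filter through 5 mM alone. The higher genes numbered 1 without either 25 mM replicate, 2 without 5 mM replicate 1 and 7 without 5 mM replicate 3. The ligand TGFB2 was at 37.9 and 37 RPKM at 25 mM and 18.8 and 19 at 5 mM (0.95 ± 0.063). LTBP1, which stores latent TGF-beta in the matrix, was at 3.8 and 3.69 RPKM at 25 mM and 10.2 and 9.82 at 5 mM (-1.21 ± 0.078). TGFBI, an induced matrix protein, was at 159 and 172 RPKM at 25 mM and 293 and 303 at 5 mM (-0.85 ± 0.050). In the Wnt list 3 of 17 were higher and 9 lower, and 5 were lower without 25 mM replicate 1. Without 2 members that passed the filter through 5 mM alone, 7 of 15 were lower. The receptor FZD8 was at 1.22 and 1.57 RPKM at 25 mM and 9.33 and 15.6 at 5 mM (-2.45 ± 0.24). The receptor FZD7 was at 34.7 and 31.8 RPKM at 25 mM and 12 and 18.5 at 5 mM (1.11 ± 0.20), so 2 receptors of 1 family differed in opposite directions. In the IGF axis 7 of 13 were lower and 1 higher, with the binding protein IGFBP7 at 115 and 143 RPKM at 25 mM and 269 and 352 at 5 mM (-1.25 ± 0.14). IGFBP3 was at 30.5 and 30.4 RPKM at 25 mM and 17 and 17.9 at 5 mM (0.77 ± 0.061), and 6 of 12 of the axis were lower without a member that passed the filter through 5 mM alone. Actin and SRF genes gave 6 of 30 in each direction, shares near the 17.2% and 22.0% of all genes. Smooth muscle actin, ACTA2, was at 6.71 and 6.85 RPKM at 25 mM and 23.6 and 22.3 at 5 mM (-1.62 ± 0.068). Transgelin, TAGLN, was at 540.1 and 519 RPKM at 25 mM and 1014 and 972 at 5 mM (-0.91 ± 0.046). Calponin, CNN1, was at 28.2 and 24.6 RPKM at 25 mM and 11.1 and 12 at 5 mM (1.13 ± 0.079).

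G2 and mitosis genes were higher in 13 of 25 and lower in 0, with cyclin A2, CCNA2, at 167 and 171 RPKM at 25 mM and 112 and 109.5 at 5 mM (0.60 ± 0.047). The kinase PLK1 was at 219 and 224 RPKM at 25 mM and 162 and 171 at 5 mM (0.41 ± 0.045). The proliferation marker MKI67 was uneven in both pairs, at 102 and 73.4 RPKM at 25 mM and 77.7 and 61.4 at 5 mM, and did not pass the test (adjusted p = 0.143). In both pairs replicate 1 was the higher library, and without 25 mM replicate 3 MKI67 was called higher (0.56, adjusted p = 0.0257). G1/S and replication genes gave 7 of 28 higher and 4 lower, with 3 higher without either 25 mM replicate and 2 lower without 25 mM replicate 1. CDK6, a G1 kinase, was at 15.3 and 13.4 RPKM at 25 mM and 7.19 and 6.37 at 5 mM (0.98 ± 0.11). Genes of the DNA damage response and cell cycle arrest were lower in 19 of 23 and higher in 0, and 11 were lower without 25 mM replicate 1. Without a member that passed the filter through 5 mM alone, 18 of 22 were lower. The list holds known targets of the transcription factor p53 and is not a full set of DNA damage genes. CDKN1A, the cell cycle inhibitor p21, was at 50.6 and 54.9 RPKM at 25 mM and 141 and 224 at 5 mM (-1.73 ± 0.23, adjusted p = 0.000814). The death receptor FAS was at 5.06 and 5.51 RPKM at 25 mM and 14 and 14.7 at 5 mM (-1.29 ± 0.090).

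Replication-dependent histone genes, whose transcripts mostly lack a poly(A) tail, were lower in 17 of 18 (median -1.39). Of the 18, 6 passed the filter through the 5 mM libraries alone, and without them 11 of 12 were lower (median -1.98). HIST1H2BK was at 24.9 and 28.4 RPKM at 25 mM and 181 and 223 at 5 mM (-2.87 ± 0.10). The linker histone HIST1H1C was at 10.1 and 10.3 RPKM at 25 mM and 49.9 and 56.2 at 5 mM (-2.27 ± 0.089). Their summed level was 65.0 and 69.9 RPKM at 25 mM and 342.0 and 424.8 RPKM at 5 mM. Histone genes are near-identical copies, and 5 mM replicate 1 was below replicate 3 in them by a median of -0.305. Ribosomal protein genes were higher in 11 of 27 and lower in 0, and 7 were higher without either 25 mM replicate. RPS24 was at 979 and 965 RPKM at 25 mM and 732 and 673 at 5 mM (0.47 ± 0.048). Lysosome and autophagy genes were lower in 20 of 25 and higher in 1. GPNMB, a glycoprotein of lysosomes and melanosomes, was at 55.5 and 59.4 RPKM at 25 mM and 374 and 368 at 5 mM (-2.67 ± 0.048, adjusted p = 1.98e-07). The cholesterol carrier NPC2 was at 107 and 118 RPKM at 25 mM and 433 and 470.4 at 5 mM (-1.99 ± 0.069). NPC1 was at 14.9 and 15.7 RPKM at 25 mM and 44.8 and 42.8 at 5 mM (-1.46 ± 0.061). The protease CTSB was at 229 and 240.1 RPKM at 25 mM and 599.6 and 647 at 5 mM (-1.41 ± 0.052). HOX genes, which record body position, gave 6 of 30 higher and 1 lower, 3 higher without 25 mM replicate 1, 10 higher without 5 mM replicate 3 and 5 lower without 5 mM replicate 1.

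Markers of other cell types were counted beside these groups. Fibroblast markers were higher in 6 of 17 and lower in 7. Of these, TCF21 lost its call under 8 alternatives, DCN under 4 and VIM under 3. TWIST1 gained a call under 6, DDR2 under 2 and POSTN under 1. Smooth muscle markers were higher in 2 of 9 and lower in 4 (2 without 25 mM replicate 3), with a summed level of 702.8 to 734.7 RPKM at 25 mM and 1193.5 to 1209.3 RPKM at 5 mM. A member that passed the filter through 25 mM alone was among the 2 higher. Of 12 leukocyte markers, 5 were tested and 4 were lower, with summed levels of 93.7 and 94.1 RPKM at 25 mM and 269.6 and 259.6 RPKM at 5 mM. Most of that sum was CD68, a lysosomal protein, at 91.7 and 91.3 RPKM at 25 mM and 251 and 241 at 5 mM (-1.42 ± 0.045). LCP1, an actin bundler of blood cells, was at 0.298 and 0.449 RPKM at 25 mM and 10.8 and 8.44 at 5 mM. LAPTM5, a lysosomal protein of blood cells, was at 0.0475 and 0.187 RPKM at 25 mM and 4.53 and 6.34 at 5 mM, both named after their values were seen. LCP1, LAPTM5 and the macrophage growth factor receptor CSF1R passed the filter through the 5 mM libraries alone, so their direction was set by the filter. CSF1R was at 0.36 and 0.454 RPKM at 25 mM and 1.24 and 1.24 at 5 mM, and its call was lost under quantile normalization (adjusted p = 0.152). The monocyte marker CD14 was at 1.1 and 1.5 RPKM at 25 mM and 2.02 and 2.33 at 5 mM and did not pass the test (adjusted p = 0.051), though it was called lower under 7 alternatives, among them median centring (adjusted p = 0.0443). CD3E and TYROBP were at 0 in all 4 libraries. PTPRC, the pan-leukocyte marker, was at 0.195 and 0.136 RPKM at 25 mM and 0.124 and 0.0856 at 5 mM, and ITGAM, LYZ and AIF1 were at most 0.104 RPKM in each library. The part of other cells in these results was not tested. Endothelial markers had 2 of 12 tested and 1 lower, EGFL7, which passed the filter through 5 mM alone and lost the call under 6 alternatives, among them leaving out either 25 mM replicate (adjusted p = 0.145 and 0.0634) or 5 mM replicate 3 (0.12). CDH5 and EMCN were at 0 in all 4 libraries. PECAM1, an endothelial adhesion molecule, was under the filter at 0.0169 and 0.0166 RPKM at 25 mM and 0.817 and 0.659 at 5 mM. So was KDR, a VEGF receptor, at 0.147 and 0.127 RPKM at 25 mM and 0.912 and 0.942 at 5 mM. Epithelial markers had 3 of 7 tested lower and 0 higher, with KRT5 at 0. Of the 3, MUC1 lost its call under 4 alternatives and OCLN under 3. KRT7 gained a lower call under 2 and KRT19 under 1, and KRT80 gained a higher call under 2. Among cardiomyocyte markers, 2 of the 9 tested were higher and 2 lower. TNNC1, higher, passed the filter through 25 mM alone and GATA4, lower, through 5 mM alone, so the filter set the direction of 1 call on each side. The sodium-calcium exchanger SLC8A1 was at 14.1 and 13.8 RPKM at 25 mM and 9.14 and 7.46 at 5 mM (0.69 ± 0.10). The cardiac factor GATA4, named after its value was seen, was at 0.253 and 0.58 RPKM at 25 mM and 2.89 and 3.18 at 5 mM (-1.52 ± 0.14).

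The same maintenance histories were measured again in the 4 libraries taken after 24 h at 50 mM, which share no library with the comparison above but share its fit and its cultures. There, 4876 of 11807 genes (41.3%) were called between cells from 25 mM and cells from 5 mM. Of the 4629 genes called before the rise, 98.68% kept the sign of the difference at 50 mM, against 85.35% of all genes tested. Of them 3840 (83.0%) were called in the same direction at 50 mM, which is 78.8% of the calls made there. With each pair of groups fitted on its own 4 libraries, 3060 of 3386 calls (90.4%) were made again. MMP1 differed by -5.47 at 50 mM, SFRP1 by -4.01, LIN7A by 2.41 and GFRA1 by 2.3, each close to its value before the rise. In the interferon list the median was -2.98 at 50 mM beside -2.06 before.

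A test of the change in the difference itself called 0 genes (0.0%) by limma, with 702 genes at an unadjusted p under 0.05 and a smallest adjusted p of 0.053. PRSS35, with -1.09 before and -3.05 after the rise, and the plasminogen activator inhibitor SERPINB2, with -1.44 and -0.71, had that smallest value and were named for it. CTGF and ME1, the malic enzyme, were called in opposite directions in the 2 comparisons. CTGF was higher in the 25 mM culture before the rise (0.29) and lower after it (-0.39), with an adjusted p of 0.245 for the change. ME1 had 0.37 and -0.37, with an adjusted p of 0.139.

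**Figure D5:**
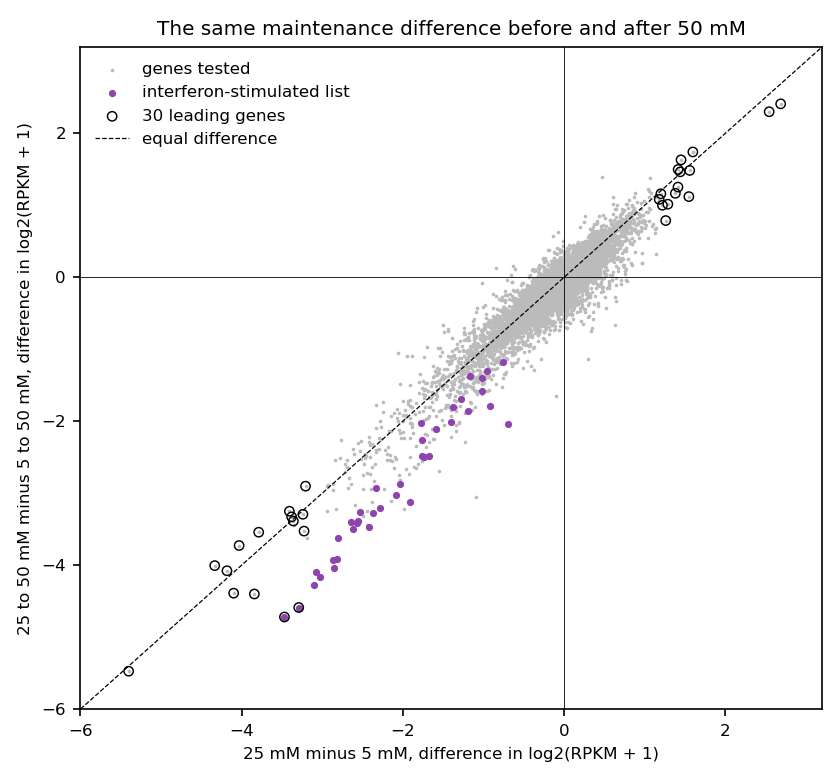
Each point is a gene tested, with its difference between the 25 and 5 mM cultures on the x axis and the difference between the same cultures after 24 h at 50 mM on the y axis, both in log2(RPKM + 1). Points lie along the dashed line of equal differences, and the 38 interferon-stimulated genes (purple) lie below it, with medians of -2.06 and -2.98.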

How the data were processed

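Total RNA of 8 AC16 samples from 2 maintenance cultures was sequenced, per the labels' protocols, and the submitters' processing notes name STAR and hg38. The authors deposited 2 tables of RPKM values, 1 for each maintenance glucose; the counting tool, annotation and strand setting are not given in the sources used here. Whole reads and coding lengths were recovered from the values within 0.01 read to learn depth, and 84.6% of 6897 lengths recovered are multiples of 3. Log2(RPKM + 1) values were fitted with limma 3.58.1 in R 4.3.3 (trend, two-sided) on all 8 libraries in 4 groups of 2 with a shared spread, and p-values were adjusted by Benjamini-Hochberg over 11807 genes. The same genes served the comparison after 50 mM.

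Members, rule and the 46 gene lists were chosen with earlier results of these data known. Named genes are up to 15 per direction, up to 4 called genes per list (these averaging at least 5 RPKM), and 28 genes set by name; the text says where others were added, and some selected genes are not reported here. On simulated data with 200 of 11807 genes changed, the fit recovered 62% at 1.5-fold, 85% at 2-fold and 0% at 1.2-fold. False calls numbered 5, 4 and 0. Far fewer genes were changed there than the 4629 called here, so these rates do not carry over to this comparison. Coordinates and promoters are RefSeq's on GRCh38.p14. Alternatives covered pseudocount, filter, scaling, GC content, model, threshold, replicate block and each library left out.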

Additional observations from a re-analysis of the deposited data

How the results depend on the processing

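Between 25 and 5 mM, counts of calls stayed within 1.5 times the reported 4629 under other pseudocounts, filters, scalings, spread models and a GC correction. An adjusted p of 0.01 left 2914, and leaving out 1 library gave 3006 to 4731. Between the cultures after 50 mM the reported 4876 became 3111 at 0.01 and 3141 to 3823 with 1 library left out. Quantile normalization moved the share of higher calls from 43.9% to 56.2% before and from 44.3% to 60.2% after 50 mM; the cause was not tested. For the change in the difference, 1 gene was called with no filter, with median centring and with GC correction, 2 with quantile normalization and with robust estimation, 3 with upper quartile scaling, and 0 to 6 with 1 library left out. Libraries numbered 1 and 3 deviated together across the 25 and 5 mM groups (r = 0.2644 over 11807 genes), but 2 such pairs do not establish pairing. A replicate block gave 3424 calls on all 8 libraries and 4622 on the 4 libraries compared. After 50 mM it gave 3356 on all 8, and no paired fit of those 4 libraries alone was possible because the groups share 1 replicate number. Of 206 called genes that the naming rule or a later choice selected, 20 lost the call under at least 1 alternative, and 0 were reversed, while 3 of 9 not called gained one. The block took the call from EGR1 (adjusted p = 0.0693) and WWTR1 (0.084) on all 8 libraries and from WWTR1 (0.0723) on the 4 compared. On those 4 it gave one to IRS2 (4.05e-08) and MKI67 (0.00163). Depth limits the genes with a few reads in 1 culture, such as MMP1.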

Other observations

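Differences between the cultures were not spread evenly along the genome. On chromosome 21, 77.2% of 101 tested genes were higher at 25 mM (median log2 difference 0.198), with 43 called higher and 9 lower. On chromosome 22, 32.5% of 277 tested genes were higher (median -0.107), and on chromosome 18, 32.7% of 165 (median -0.13). Over all genes tested the median was -0.0022.

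Windows of 10 Mb with at least 15 tested genes differed in direction, and neighbouring windows on chromosome 11 had opposite signs. On chromosome 11, the window from 110 to 120 Mb had 54 of 65 genes higher at 25 mM (median 0.352), and the next, from 120 to 130 Mb, had 40 of 43 lower (median -0.387). On chromosome 13, the window from 70 to 80 Mb had 16 of 16 genes higher (median 0.467). On chromosome 12, the window from 20 to 30 Mb had 25 of 30 lower (median -0.335). Its neighbours were lower too, with medians of -0.131 (10 to 20 Mb) and -0.149 (30 to 40 Mb). After 50 mM these 4 windows had medians of 0.25, -0.448, 0.401 and -0.36 between the same cultures. The window furthest lower of all was on chromosome 6, from 20 to 30 Mb, with 48 of 58 genes lower. Its median was -0.518, and -0.377 after 50 mM. Windows on chromosome 18 (60 to 70 Mb, median -0.413) and chromosome 8 (80 to 90 Mb, median -0.403) came next. The windows were picked after their values were seen, the libraries carry no DNA measurement, and no test was made.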
